A study of Homo sapiens with 10 samples.

Results

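DNA mismatch repair genes were examined as a set of 8 listed genes, EPM2AIP1, MSH3, MSH6, PMS1, PMS2, MLH3, EXO1 and MGMT, out of 19821 protein-coding genes on chromosomes 1 to 22 and X. All 8 were found in the RefSeq annotation of GRCh38. For each gene, the peaks of 4 lists were collected within 1 kb of either gene end and over the gene body. The lists came from CUT&Tag in HCT116 cells labelled WT, a long-established line from a human colorectal carcinoma that is known to be deficient in mismatch repair. In CUT&Tag an antibody guides a fused transposase (pAG-Tn5) to chromatin, where it cuts and tags the DNA beside the bound protein. The targets were the catalytic subunits of 2 RNA polymerases, POLR1A for polymerase I (3 samples) and POLR2A for polymerase II (3 samples), the promoter mark H3K4me3 (1 sample) and the heterochromatin mark H3K9me3 (3 samples). The label gives replicates from separate days and freshly thawed aliquots, and no treatment, for all 10.

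Mismatch repair removes the mispaired bases and small loops that DNA polymerases leave behind. MutS-type proteins find the error: MSH6 belongs to the dimer that reads single mismatches, and MSH3 to the one that reads larger loops. MutL-type proteins (PMS2, PMS1, MLH3) follow, of which PMS2 carries the nicking activity used in most repair, MLH3 acts largely in meiosis and the role of PMS1 is less clear. EXO1 is the exonuclease that removes the strand with the error. The list also holds genes that are no mismatch repair factors: MGMT, which removes alkyl groups from guanine directly, and EPM2AIP1, whose product binds the glycogen regulator laforin.

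Each target had 1 peak list, so the values carry no replicate error, and no difference between genes or lists could be tested. Fold enrichment is the authors' linear value for a peak, and it is used only to place a peak within its own list. The lists held 3812 peaks for POLR1A, 19997 for POLR2A, 17181 for H3K4me3 and 16414 for H3K9me3 on chromosomes 1 to 22 and X. Read depth is unknown, and a gene without a peak is one where none was called, not one shown to be free of the target. As a check of the label, 6 of 10 epithelial marker genes had both POLR2A and H3K4me3, each at either gene end. These were CDH1, CDX2, EPCAM, KRT8, KRT18 and KRT19, while KRT20, VIL1, CDX1 and LGALS4 had no peak of any target at an end. Of protein-coding genes, 39.2% had POLR2A and H3K4me3 at the same end, a stricter count. None of 4 leukocyte markers had a peak of any target at an end. Of the other markers, POLR2A was at 0 of 4 fibroblast, 1 of 3 liver (APOA1, 7.65) and 2 of 3 neuronal genes (RBFOX3 and SYT1, up to 6.96), and H3K4me3 at 1 of each (COL1A1, APOA1 and SYT1). RBFOX3 also had H3K9me3 (3.55). The POLR2A shares thus do not set the epithelial markers apart from the neuronal ones.

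H3K4me3 marked all 8 genes at an end, against 54.6% of protein-coding genes. POLR2A was called at an end of 5 (EPM2AIP1, MSH6, PMS1, PMS2 and EXO1), against 41.3%, and in each of them it lay under H3K4me3 at the same end (39.2%). Among the 10832 genes with H3K4me3 at an end, 72.8% had POLR2A. POLR1A was called at 1 gene, EPM2AIP1, against 11.2% of protein-coding genes and 26.0% of those with POLR2A at an end. H3K9me3 was likewise called at an end of EPM2AIP1 alone, against 2.70%. The POLR1A count of 1 in 8 is close to the background. The members therefore fell into 3 patterns. EPM2AIP1 carried all 4 targets, as 1.01% of protein-coding genes did when each target was counted at either end. The H3K9me3 peak of EPM2AIP1 had a −log10 q of 2.87 and was not kept at a −log10 q of at least 5. MSH6, PMS1, PMS2 and EXO1 carried POLR2A with H3K4me3 only (28.6% of protein-coding genes), and MSH3, MLH3 and MGMT carried H3K4me3 alone (14.4%). Of the 10832 genes with H3K4me3 at an end, 5666 had POLR2A with H3K4me3 only and 2845 had H3K4me3 alone.

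Every one of these peaks was at the 5′ end of its gene, taking strand from the RefSeq promoter table, and none was called at a 3′ end. Over the 15813 protein-coding genes with a strand in that table, POLR2A was at the 5′ end of 41.5% and the 3′ end of 4.98%, and H3K4me3 at 55.4% and 5.05%. For POLR1A these shares were 11.2% and 0.911%, and for H3K9me3 2.16% and 0.797%. The median fold enrichment at ends with a peak was 9.74 for POLR2A over 5 members and 8.87 over 8192 protein-coding genes. For H3K4me3 it was 10.8 over 8 members and 11.0 over 10832 genes.

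**Figure D1:**
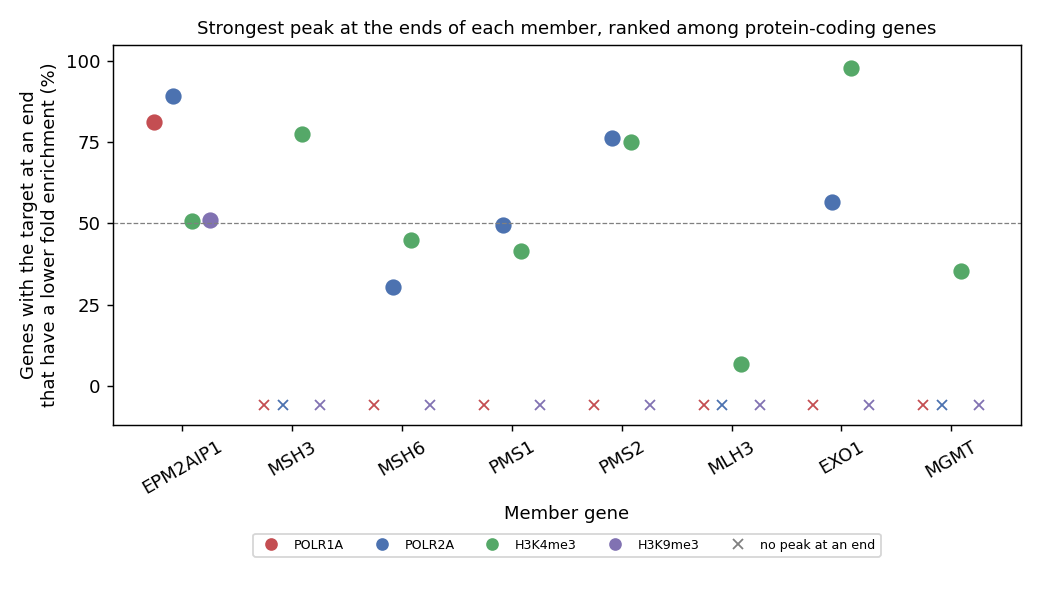
Place of each member gene among protein-coding genes with the same target at an end. The vertical axis gives the percentage of those genes with a lower fold enrichment, points are single peaks (the strongest at either end), crosses mark targets with no peak, and the dashed line is at 50%; EXO1 is highest for H3K4me3 (97.9%), EPM2AIP1 for POLR2A (89.1%), and MLH3 is lowest for H3K4me3 (6.69%).

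The MutS gene MSH6 (gene ID 2956, chr2:47783145-47810101, plus strand) had its POLR2A peak displaced into the gene. The bases before its start are shown because the POLR2A peak does not cover them while H3K4me3 reaches only their last 24. The letters come from RefSeq (GRCh38.p14, chr2:47782895-47783144, plus strand), with capitals for the motifs found: the GC box GGGCGG, known as the site of SP-type factors, and the CCAAT box, each on either strand.
MSH6: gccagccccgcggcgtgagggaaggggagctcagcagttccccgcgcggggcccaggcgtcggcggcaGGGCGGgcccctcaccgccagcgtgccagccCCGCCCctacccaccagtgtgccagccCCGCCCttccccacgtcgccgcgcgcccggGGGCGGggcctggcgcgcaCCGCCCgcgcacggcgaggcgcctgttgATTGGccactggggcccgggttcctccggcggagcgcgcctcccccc
Of these 250 bases 81.2% were G or C, with 34 CpG pairs, 5 GC boxes and 1 CCAAT box. The POLR2A peak (chr2:47783642-47784101) had a fold enrichment of 6.75 with a −log10 q of 6.62. It began 497 bp inside the gene, and its summit lay 537 bp from the gene's 5′ end, where the middle 50% of summits over 6557 genes lay between -152 and 26 bp. The H3K4me3 peak (chr2:47783121-47784205) had a fold enrichment of 10.6, and its summit lay 3 bp from that of POLR2A. RefSeq lists 4 start sites for MSH6, and both summits were nearest to one at 47783602, 457 bp downstream of the first, at 80 bp (POLR2A) and 77 bp (H3K4me3). Among genes with POLR2A at an end, 30.3% had a lower value than MSH6, the lowest of the 5 members.

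MSH3 (gene ID 4437, chr5:80654652-80876815, plus strand) had H3K4me3 on both sides of its start and no POLR2A there. H3K4me3 was called as a pair of peaks with a gap at the start of the gene. The outer one (chr5:80654002-80654592) had a fold enrichment of 14.1 and a −log10 q of 88.2, higher than at 77.6% of genes with H3K4me3. The inner one (chr5:80654984-80655536) had 4.73 and a −log10 q of 12.9. Of the H3K4me3 list 13.5% was lower than the inner peak and 84.6% lower than the outer one. The 391 bp between them held no peak of any target. That gap began 59 bp before the start of MSH3. The stronger peak lay wholly before the annotated start and cannot be given to MSH3 alone. RefSeq's 300 bases around the MSH3 start held 37 CpG pairs and 4 GC boxes.

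The nearest polymerase peaks to the MSH3 start lay upstream, beyond the 1 kb window. A POLR1A peak with a fold enrichment of 11.4 ended 2.22 kb from MSH3. Of the POLR1A peaks 96.0% were lower. A POLR2A peak of 6.11 and an H3K9me3 peak of 8.57 overlapped it, with gaps to MSH3 of 2.28 and 2.18 kb. No H3K4me3 peak was called there. This site is not counted for MSH3 under the 1 kb rule, nor with a window of 2 kb. Inside the gene, weak POLR2A peaks lay 127 kb from the 5′ end (fold enrichment 3.71, with 25.3% of the list lower) and 5.23 kb from the 3′ end (3.63, with 21.8% lower).

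**Figure D2:**
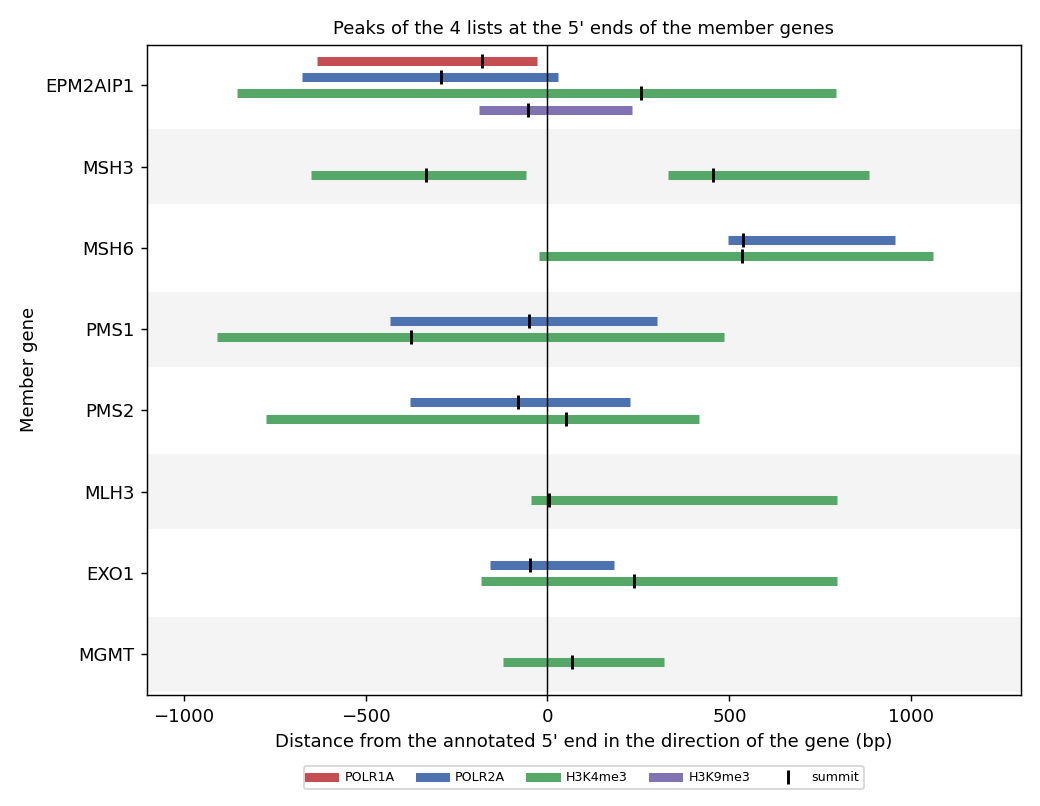
Peaks at the 5′ ends of the 8 member genes, drawn to scale. The horizontal axis is the distance in bp from the annotated 5′ end in the direction of the gene, bars are peaks of the 4 lists and black ticks their summits; EPM2AIP1 has all 4, the POLR2A peak of MSH6 begins 497 bp inside the gene, and the H3K4me3 peaks of MSH3 leave a gap of 391 bp.

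The MutL genes PMS2 and PMS1 both had POLR2A and H3K4me3 over a start shared with a divergent neighbour. PMS2 (gene ID 5395, chr7:5970925-6009106, minus strand) starts 166 bp from AIMP2, a scaffold protein gene of the tRNA synthetase complex (chr7:6009272-6023834, plus strand). PMS1 (gene ID 5378, chr2:189784450-189877629, plus strand) starts 111 bp from ORMDL1, a regulator of sphingolipid synthesis (chr2:189763859-189784339, minus strand). The bases between each pair of genes are shown because a POLR2A peak covers both starts, in the direction of the member gene (RefSeq, GRCh38.p14: chr7:6009107-6009271, minus strand, and chr2:189784340-189784449, plus strand). Capitals mark CCAAT boxes, GC boxes, the ETS core CCGGAA and the site TGACG of the cyclic AMP response element, on either strand.
PMS2: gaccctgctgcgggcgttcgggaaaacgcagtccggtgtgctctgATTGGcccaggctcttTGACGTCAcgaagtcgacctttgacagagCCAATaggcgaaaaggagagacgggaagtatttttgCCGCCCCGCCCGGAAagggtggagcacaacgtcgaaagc
PMS1: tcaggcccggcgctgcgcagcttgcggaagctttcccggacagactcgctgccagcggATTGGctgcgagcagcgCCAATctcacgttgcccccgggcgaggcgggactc
Both stretches held 2 CCAAT boxes, which 34.6% of the 300-base promoters of protein-coding genes hold at least once. That of PMS2 also held 2 GC boxes, 1 ETS core and a cyclic AMP site on each strand, overlapping as 1 palindrome. GC boxes are in 56.3% of those promoters, ETS cores in 21.2% and the cyclic AMP site in 27.9%. A match of letters is a description and shows no binding.

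At PMS2 the POLR2A peak (chr7:6008879-6009483) had a fold enrichment of 12.9 and a −log10 q of 22.1, with 76.2% of genes with POLR2A lower. The H3K4me3 peak (chr7:6008690-6009879) had 13.7, with 74.98% lower. Both summits were close to a listed start of PMS2, the POLR2A summit 82 bp upstream of the outer start and the H3K4me3 summit 7 bp from the inner one. At PMS1 the POLR2A peak (chr2:189784017-189784752) had a fold enrichment of 8.78 and a −log10 q of 11.0, at the middle of the genes with POLR2A (49.4% lower). Its H3K4me3 peak (chr2:189783542-189784934) had 10.3 and was wide, at 1393 bp, with its summit 375 bp upstream on the ORMDL1 side. These peaks cannot be given to 1 gene of either pair. At its 3′ end PMS2 lies 74 bp from the 5′ end of RSPH10B, a cilium protein gene, and no peak was called there. Near-identical copies of the 3′ part of PMS2 exist elsewhere in the genome, and how reads from such copies were treated is not given in the sources used here.

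Taken by the strongest peak at an end, MLH3 (gene ID 27030, chr14:75013775-75051467, minus strand) had the lowest H3K4me3 value of the 8. The inner peak of MSH3 alone was lower, at 4.73. The H3K4me3 peak of MLH3 (chr14:75050670-75051511) had a fold enrichment of 5.96 and a −log10 q of 6.23, and only 6.69% of genes with H3K4me3 had a lower value. The summit lay 4 bp from the 5′ end, and the peak reached 797 bp into the gene but only 44 bp before it. The nearest POLR2A peak was 17.9 kb away and the nearest POLR1A peak 125 kb away. The 250 bases before the start are shown because they lie mostly outside the peak and differ in composition from those of MSH6 (RefSeq, GRCh38.p14, chr14:75051468-75051717, minus strand).
MLH3: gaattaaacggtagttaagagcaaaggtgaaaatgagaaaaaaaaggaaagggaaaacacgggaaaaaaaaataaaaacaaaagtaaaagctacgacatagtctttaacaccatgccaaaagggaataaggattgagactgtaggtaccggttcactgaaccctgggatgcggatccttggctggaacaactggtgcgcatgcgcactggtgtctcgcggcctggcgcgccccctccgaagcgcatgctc
Of these bases 47.2% were G or C, with 13 CpG pairs. None of the 7 motifs searched was found on either strand. They were the GC box, the CCAAT box, the ETS core, the cyclic AMP site, the TATA box TATAAA, the YY1 core ATGGCGG and the E-box CACGTG. No match says only that these letters are not in this stretch.

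EXO1 (gene ID 9156, chr1:241847986-241889939, plus strand), the exonuclease gene, had the strongest H3K4me3 of the set. Its peak (chr1:241847803-241848782) had a fold enrichment of 19.3 and a −log10 q of 129. It was peak number 275 of 17181 by fold enrichment and higher than at 97.9% of genes with H3K4me3. POLR2A (chr1:241847827-241848169) was near the middle of the genes with it, at 9.74 (56.5% lower, −log10 q of 12.3). The summits lay 288 bp apart. That of POLR2A was 49 bp upstream of the gene's outer end and 267 bp upstream of the RefSeq start at 241848204. The H3K4me3 summit was 21 bp downstream of that start. No end of another annotated gene lies within 1 kb of the ends of EXO1, MSH6, MLH3 or MGMT. The nearest POLR1A peak was 150 kb away, close to the median distance of 153 kb over protein-coding genes.

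MGMT (gene ID 4255, chr10:129467241-129770983, plus strand), the longest member at 304 kb, had H3K4me3 and no polymerase peak over its whole length. The bases before the start are shown because H3K4me3 covers their last 121 without a polymerase peak (RefSeq, GRCh38.p14, chr10:129466991-129467240, plus strand). Capitals mark GC boxes and 1 YY1 core, a motif that 6.996% of protein-coding promoters hold.
MGMT: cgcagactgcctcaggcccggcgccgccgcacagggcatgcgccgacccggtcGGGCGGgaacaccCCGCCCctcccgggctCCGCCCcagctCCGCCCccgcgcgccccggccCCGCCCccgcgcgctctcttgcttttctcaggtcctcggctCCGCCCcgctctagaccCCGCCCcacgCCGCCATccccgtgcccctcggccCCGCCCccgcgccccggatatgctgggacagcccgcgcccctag
They held 8 GC boxes and 36 CpG pairs, and 80.4% were G or C. With the 50 bases after the start, MGMT had more CpG pairs (45) than 95.5% of protein-coding promoters, whose median was 21. The H3K4me3 peak (chr10:129467120-129467561) had a fold enrichment of 9.66 and a −log10 q of 14.2, with 35.4% of genes with H3K4me3 lower. It was narrow, at 442 bp, against a median of 1105 bp over genes with H3K4me3 at the 5′ end. The nearest POLR2A peak was 581 kb from the start and the nearest POLR1A peak 837 kb, where the medians over protein-coding genes were 7.88 kb and 153 kb. Of 1796 genes of 0.5 to 2 times its length, 65.6% held a POLR2A peak in the body.

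EPM2AIP1 (gene ID 9852, chr3:36985043-36993131, minus strand) was the only one of the 8 with POLR1A, and the only one with H3K9me3 at an end. The POLR1A peak (chr3:36993159-36993765) had a fold enrichment of 8.08 and a −log10 q of 9.48, higher than at 81.3% of genes with POLR1A at an end. It lay wholly outside the gene, 28 bp upstream of its 5′ end. The POLR2A peak (chr3:36993101-36993807) contained it, with a fold enrichment of 16.1 and a −log10 q of 38.4. That is the highest POLR2A value of the 8, with 89.1% of genes with POLR2A lower. The summits of POLR1A and POLR2A lay 113 bp apart, 181 and 294 bp upstream.

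The H3K4me3 peak at EPM2AIP1 (chr3:36992338-36993983) was the widest of the set, at 1646 bp, with a middling fold enrichment of 11.1 (50.6% of genes with H3K4me3 lower). It contained the peaks of all the other targets. H3K9me3 (chr3:36992899-36993320) had a fold enrichment of 4.62, at the middle of its list (50.04% lower). Its −log10 q was 2.87, and it was not kept at a −log10 q of at least 5. Its summit was 53 bp upstream, 128 bp from that of POLR1A. Since the polymerase peaks lie mostly or wholly before the annotated start, they cannot be given to EPM2AIP1 alone. Genes overlapping or close to EPM2AIP1 were left out of the search for a similar pattern. Among the other protein-coding genes, the most similar over the 4 lists was EIF2AK3 on chromosome 2, the kinase gene PERK of the unfolded protein response. It lay 13.8 percentile points away (Euclidean distance of ranks over 4 targets) and had fold enrichments of 8.39 for POLR1A, 14.5 for POLR2A, 10.4 for H3K4me3 and 4.40 for H3K9me3.

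Along the gene bodies POLR1A was called in 0 of 8 members, against 10.5% of protein-coding genes. POLR2A touched the body of 6 (46.1%) and H3K4me3 that of all 8 (58.6%), mostly as the 5′ peaks already described. POLR2A had its summit within the gene only in MSH3 and MSH6, against 33.3% of protein-coding genes. Beyond 1 kb from each end a POLR2A peak was found only in MSH3, against 24.6%. Its 2 peaks had −log10 q values of 2.78 and 2.35 and were not kept at a −log10 q of at least 5. Of genes of 0.5 to 2 times the length of MSH3, 64.8% held a POLR2A peak anywhere in the body and 36.6% at least 2. H3K9me3 touched the body of 3 members (EPM2AIP1, MSH3 and MGMT), against 13.6%. MSH3 and MGMT are far longer than the others. Of genes of 0.5 to 2 times the length of MSH3, 39.1% held an H3K9me3 peak, and of those near the length of MGMT 48.4% held at least 1 and 24.9% at least 2.

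In MSH3 the H3K9me3 peak (chr5:80848994-80849917) had a fold enrichment of 6.41, higher than 88.9% of its list, and lay 27.5 kb from the 3′ end. In MGMT there were 2, with summits 53.5 and 65.5 kb from the 5′ end and fold enrichments of 4.61 and 3.97 (−log10 q of 6.40 and 3.44). Another, of 3.62 (−log10 q of 1.82), lay 6.01 kb before the start. Of these MGMT peaks only the one at 53.5 kb passed a −log10 q of at least 5, as the MSH3 peak did (6.84). The MGMT peaks had no more than middling strength, with 49.9%, 23.5% and 10.7% of the list lower. Exon and intron were not assigned, because the annotation used gives gene limits only.

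**Figure D3:**
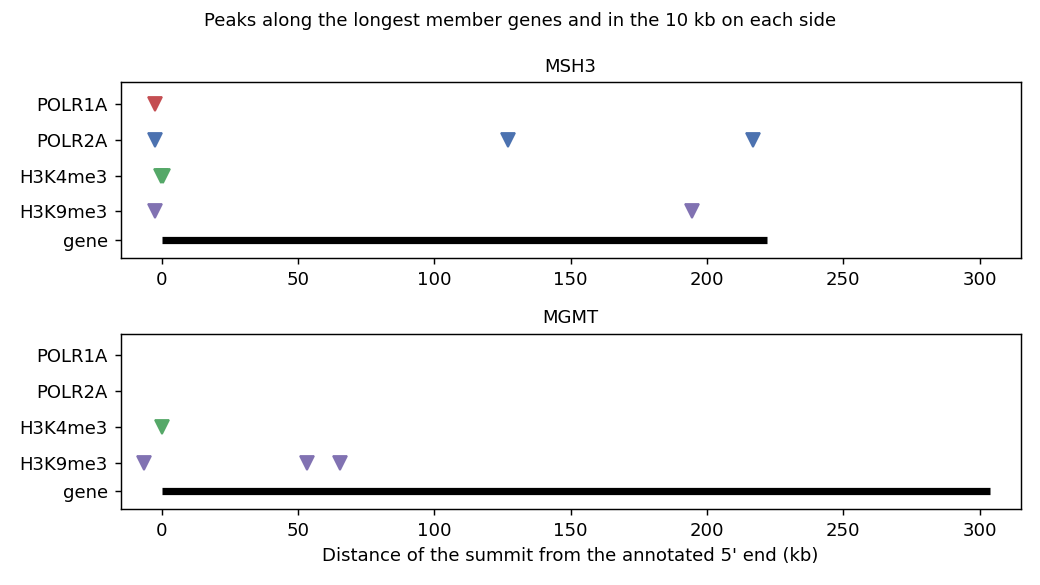
Summits along MSH3 and MGMT, the longest member genes, and in the 10 kb on each side. The horizontal axis is the distance in kb from the annotated 5′ end, triangles are summits of the 4 lists and the black bar is the gene; MGMT has no triangle for either polymerase, and MSH3 has POLR2A at 127 kb and H3K9me3 27.5 kb from its 3′ end.

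Other repair genes were described by 3 lists. Of all protein-coding genes, 54.6% had H3K4me3 at an end, 41.3% POLR2A, 11.2% POLR1A and 2.70% H3K9me3. Of 22 factors that act with the mismatch repair proteins or resemble them, 18 had H3K4me3 at an end, 16 POLR2A, 5 POLR1A and 1 H3K9me3. The highest POLR2A values were at SETD2 (18.0), the H3K36 methyltransferase whose mark MSH6 reads, RPA2 (16.7), a subunit of the single-strand binding protein, HMGB1 (15.8) and the helicase gene MCM8 (14.0). POLR1A was highest at POLD1 (8.32), the catalytic subunit of DNA polymerase delta, and at PCNA (7.19), the sliding clamp. RPA2 was the 1 gene of this list with all 4 targets, each counted at either end, as EPM2AIP1 was among the members. The values at RPA2 were 5.44 for POLR1A, 17.3 for H3K4me3 and 4.89 for H3K9me3. Of the 22, FAN1, MSH4, MSH5 and RPA3 had no peak of any target at an end, and MSH4, a MutS gene of meiosis, had H3K9me3 in its body (6.17). In the body, H3K4me3 was called in 19 of the 22 (58.6% of protein-coding genes) and POLR2A in 18 (46.1%). The H3K4me3 count is above that at ends, so the genes without a peak at an end did not all lack H3K4me3 in the body.

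Of 20 genes of base excision repair and direct reversal, 19 had H3K4me3 at an end, 14 POLR2A, 3 POLR1A and 0 H3K9me3. TDG, a thymine glycosylase gene, had the highest POLR1A value of all the repair genes here (11.8, with POLR2A at 19.3), followed in this list by MBD4 (POLR1A 7.08, POLR2A 12.7), which also removes thymine from mispairs. OGG1, which removes oxidised guanine, had POLR2A at 15.0 with POLR1A at 6.72, and NTHL1, which removes oxidised pyrimidines, had POLR2A at 9.65 with no POLR1A. Of 20 nucleotide excision repair genes, 15 had H3K4me3, 13 POLR2A, 1 POLR1A and 1 H3K9me3. The highest POLR2A values were at XPC (16.3), the damage sensor, RAD23B (15.9, the 1 gene with POLR1A, at 6.12), GTF2H3 (15.6), a subunit of the factor TFIIH, and XPA (13.5), a damage verification factor. The shares with POLR2A ranged from 62.5% of the members to 72.7% of the partner factors. Among all protein-coding genes the share was 41.3%, and among those with H3K4me3 at an end 72.8%. The share with POLR1A ranged from 5% to 22.7%, against 11.2% of all protein-coding genes. With 1 to 5 genes in each list these POLR1A shares were not tested against each other.

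**Figure D4:**
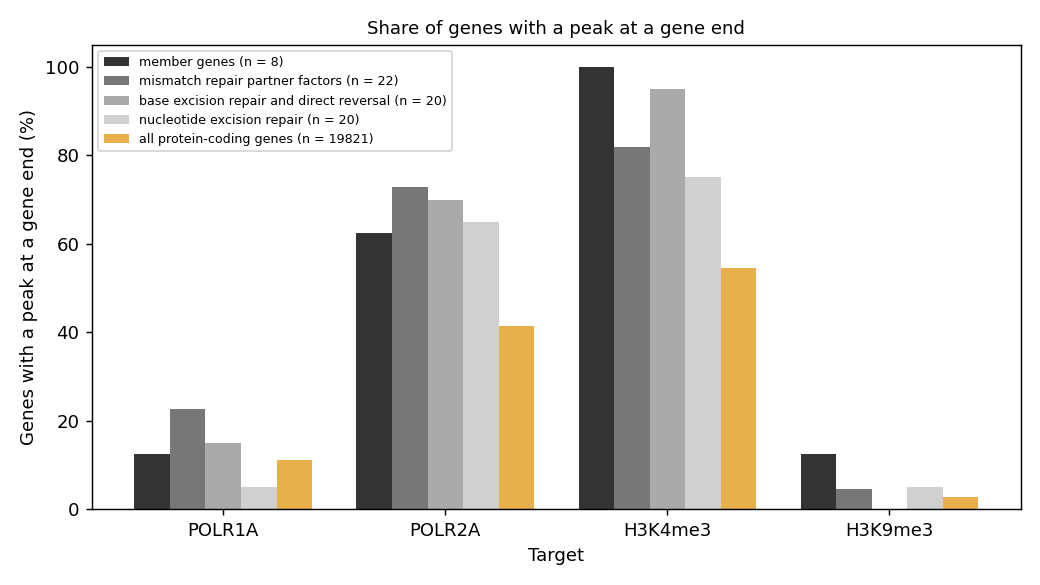
Share of genes with a peak at a gene end for the 8 member genes, 3 lists of other repair genes and all 19821 protein-coding genes. Bars start at 0 and give percentages for each target, without error because each target has 1 list; H3K4me3 is at 100% of the members against 54.6% of all genes, and POLR1A at 12.5% against 11.2%.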

How the data were processed

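The deposited data were 4 peak lists in MACS2 format, 1 per target; per the labels, the H3K4me3 list belongs to 1 sample and the others name no replicate. The authors' fold enrichment is a linear ratio. The −log10 q values are used as deposited, with the summit offset. A display score, also deposited, enters no result. The lowest −log10 q in each list was just above 1. For the caller's settings, its control and any pooling, the answer is not given in the sources used here. Builds GRCh38 and hg38 stand in the submitters' processing notes, beside tools listed with no role (STAR, deepTools 3.1.1, SAMtools 1.6). Control antibody samples were not analysed here.

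Peaks on chromosomes 1 to 22 and X were used. Genes came from RefSeq (GRCh38.p14), leaving out 794 of 59792 not placed on the main chromosome sequences, and strand from its promoter table, which held 15813 of 19821 protein-coding genes. A peak was at an end if it shared at least 1 base with the window of 1 kb on each side. Motifs were searched as letters on both strands in 22156 promoter entries of 300 bases. Printed bases are those before the start that lie in no annotated gene. Overlap counting was tested on simulated data, in Python 3.11.15 with pandas 2.3.3. The members and lists were chosen with earlier results of these data known. Named genes were the members, neighbours with an end within 1 kb or sharing a peak, and the up to 4 highest POLR2A and 2 highest POLR1A genes of each list. The gene with the nearest pattern to a member with 3 or more targets was also named, leaving out genes that overlap or lie close to that member. Neighbours of EPM2AIP1 and MSH3 are not reported here. Other genes (markers, FAN1, MSH4, MSH5, RPA3) were named from lists after their values were seen.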

Additional observations from a re-analysis of the deposited data

How the results depend on the processing

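Counts of members at gene ends were recomputed under 6 alternatives each and counts in gene bodies under 4 each, which gave 52 values, of which 41 stayed within 1.5 times the main count and 11 did not. At a −log10 q of at least 5, H3K9me3 at an end fell from 1 member to 0 (0.590% of protein-coding genes). With lists of equal length (the 3812 strongest peaks of each), POLR2A at an end fell from 5 members to 2 (EPM2AIP1 and PMS2, against 17.3%), H3K4me3 from 8 to 3 (MSH3, PMS2 and EXO1, against 17.8%), H3K9me3 from 1 to 0, and POLR2A with H3K4me3 at the same end from 5 to 1 (PMS2). In the body that setting left 2 members with POLR2A, 2 with H3K4me3 and 1 with H3K9me3. Fewer peaks enter these settings by construction. Counting summits left POLR2A in 2 bodies (against 33.3%). Leaving out 1 kb at each end left POLR2A in 1 (MSH3, against 24.6%) and H3K4me3 in 1 (MSH6, against 30.5%). POLR1A at an end stayed at 1 member, EPM2AIP1, in all 6 of its alternatives. Windows of 500 bp and 2 kb and the 5′ end alone changed no count at gene ends. No paired analysis was possible because the lists hold no values per replicate, and for the same reason no replicate could be left out. Depth per sample is unknown.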
